A study of Homo sapiens with 6 samples.

Results

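The 3 D-type cyclin genes and 7 cyclin-dependent kinase (CDK) inhibitor genes were taken by symbol from the deposited gene table. They were CCND1, CCND2, CCND3, CDKN1A, CDKN1B, CDKN1C, CDKN2A, CDKN2B, CDKN2C and CDKN2D. All 10 were among the 19923 genes of the table, and all 10 passed the filter on low counts, which left 14086 genes tested. The samples were 3 libraries of BT549 cells treated with an agent that the submitters call ENL and 3 libraries of control BT549 cells, each measured by RNA sequencing. BT549 is a human breast cancer cell line. The sources used here do not say what ENL stands for, nor give its dose, its duration or the vehicle of the control. The comparison asks which of these genes differed in transcript level between ENL-treated and control cells. Whether replicate libraries stem from separate cultures is not stated, so a p-value here speaks only of the spread between libraries, which may be technical.

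D-type cyclins bind CDK4 and CDK6 in G1 phase, and the active complexes phosphorylate the retinoblastoma protein and its relatives, which releases E2F transcription factors and lets cells enter S phase. Inhibitors of the INK4 family (CDKN2A to CDKN2D) bind CDK4 and CDK6 and keep D cyclins from activating them. Inhibitors of the CIP/KIP family (CDKN1A to CDKN1C) bind whole cyclin-CDK complexes and block mainly those with CDK2. BT549 is known as a line that lacks functional retinoblastoma protein, and cells without retinoblastoma protein commonly make much CDKN2A transcript.

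ENL-treated cells had lower transcript levels of the D cyclins CCND1 and CCND3 and higher levels of the CDK inhibitors CDKN1B, CDKN1C, CDKN2B and CDKN2D. CCND1 was 2.23-fold and CCND3 2.17-fold lower, while CDKN1B was 3.76-fold, CDKN2B 3.18-fold and CDKN2D 2.05-fold higher. The scarce transcripts CCND2 and CDKN1C were also higher, by 2.40-fold and 10.1-fold. For CDKN1A, CDKN2A and CDKN2C the difference did not pass. Thus 5 of the 10 members were higher in ENL and 2 were lower in edgeR's quasi-likelihood test (adjusted p under 0.05). Over all genes tested, 38.4% passed, 20.0% higher and 18.4% lower in ENL. In 8 of the 10 members, 5 higher and 3 lower, the ENL libraries did not overlap the control libraries, against 54.0% of all genes tested (26.4% higher and 27.6% lower). The sign of a small change depends on the scaling of the libraries. With trimmed-mean scaling (TMM), used throughout, 52.2% of the genes that passed were higher in ENL and the tested genes had a median log2 fold change of -0.022. Scaling by library totals alone gave 31.1% and a median of -0.23. Bulk RNA cannot tell a change in every cell from a change in the share of cells that express a gene or are in one cell cycle phase.

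The libraries held 74457932 to 85310759 units in ENL and 76387436 to 80964005 units in control, where about 4 units are taken as 1 sequenced fragment. ENL library 3 stood apart from ENL libraries 1 and 2 on the second principal component (14.3% of the variance, scores of -55.8 against 22 and 26.3). Without it, 5 members were again higher and 2 lower. The mesenchymal markers of the line were expressed, with VIM, a mesenchymal intermediate filament gene, at 5949 ± 503 CPM in ENL and 2744 ± 453 CPM in control (SD, n = 3 each; CPM is the count scaled to library size with TMM factors). Of the 6 mesenchymal markers 3 passed as higher (VIM, FN1 and CDH2) and 1 as lower. The lower one was SPARC, with 92.7 CPM in ENL and 331 CPM in control. All 6 together summed to 6133 to 7030 CPM in ENL against 3354 to 4063 CPM in control, and most of that was VIM. The epithelial markers EPCAM and CDH1 stayed near 0, at 0.122 and 0.175 CPM in ENL and 0.0431 and 0.205 CPM in control. KRT19 and ESR1 were low as well, at 0.743 and 0.696 CPM in ENL and 0.752 and 0.797 CPM in control. The remaining luminal markers were expressed. KRT8 had 38.0 CPM in ENL and 15.8 CPM in control, GATA3 31.6 and 30.1, and KRT18 24 and 26.3. All 7 luminal markers together reached 87.0 to 108.2 CPM in ENL and 69.1 to 82.1 CPM in control, and 1 of the 6 tested, KRT8, passed, as higher. The 6 blood and endothelial markers summed to 0.132 to 0.455 CPM in ENL and 0.0471 to 2.58 CPM in control, with CDH5 at 0 in every library. What part these shifts have in the results below was not tested.

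**Figure D1:**
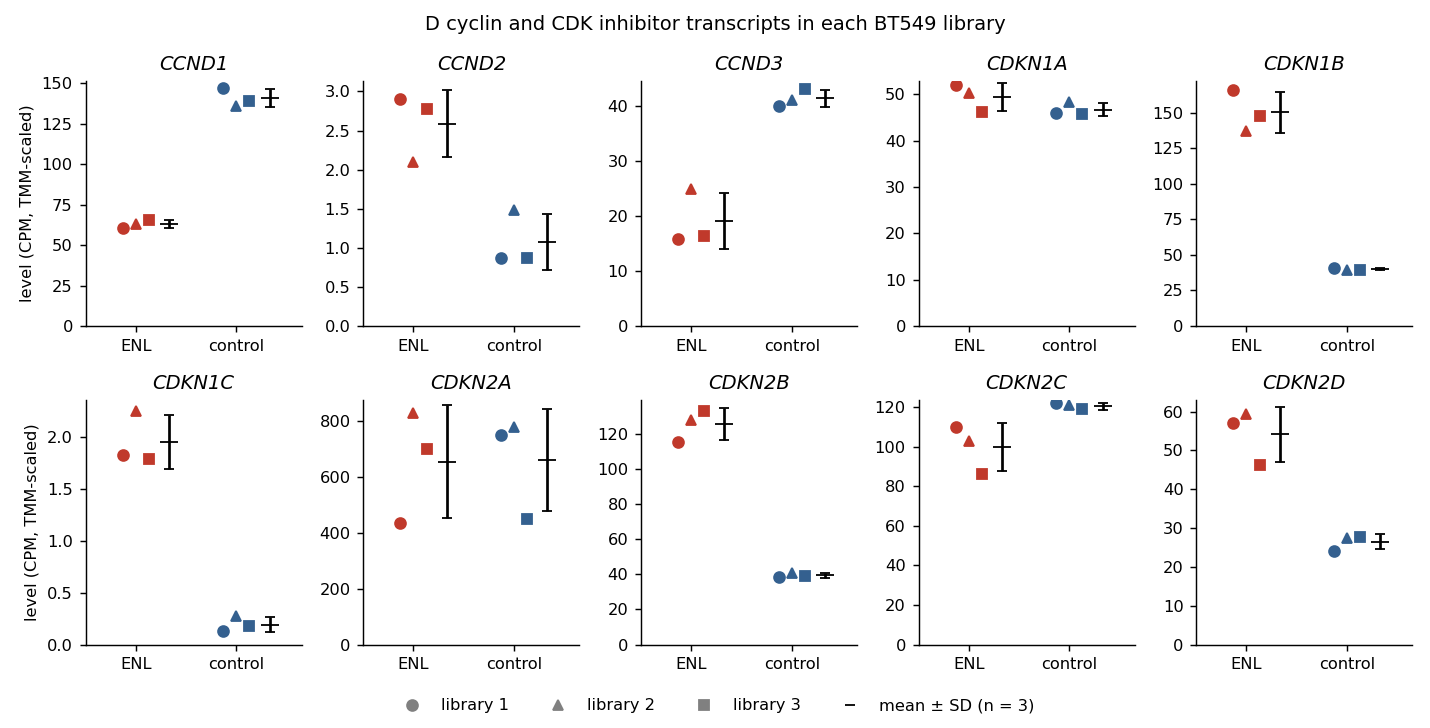
Level of each D cyclin and CDK inhibitor transcript (CPM after TMM scaling, axes from 0) in the 3 ENL libraries (left, red) and the 3 control libraries (right, blue); symbols mark the library number and black bars the mean ± SD. CCND1 lies between 60.6 and 65.3 CPM in ENL and between 136 and 147 CPM in control, whereas CDKN1B and CDKN2B lie higher in every ENL library and CDKN2A overlaps.

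CCND1 encodes cyclin D1, the D cyclin most often overexpressed in breast cancer. Its level was 60.6, 63.2 and 65.3 CPM in ENL libraries 1, 2 and 3, against 147, 136 and 139 CPM in control libraries 1, 2 and 3. All ENL values lay below all control values, and the spread within each group was small, with a coefficient of variation of 3.77% in ENL and 3.92% in control. The log2 fold change was -1.16 ± 0.07 (SE, n = 3 per group; edgeR adjusted p = 9.06e-05). The gene lies on chromosome 11 (69641087 to 69654474, plus strand, GRCh38). Exons of LTO1, on the opposite strand, cover 497 of its exon bases, and the sources used here do not say whether the counting used strand. LTO1, examined for this overlap after its values were seen, held 439, 547 and 801 units in ENL and 2294, 1921 and 2388 units in control. The sum of both genes had a log2 fold change of -1.23 (edgeR adjusted p = 8.94e-05). Because LTO1 was itself lower in ENL (log2 fold change -1.69), the sum cannot tell from which gene reads over the shared bases came.

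Cyclin D3, the product of CCND3 (chromosome 6, 41934933 to 42050357, minus strand), was the other D cyclin transcript that fell. CCND3 had 15.7, 24.9 and 16.4 CPM in ENL libraries 1, 2 and 3, against 40.0, 41 and 43 CPM in control libraries. The groups did not overlap, although ENL library 2 lay well above the other two and the coefficient of variation was 27.0% in ENL against 3.70% in control. Its log2 fold change was -1.12 ± 0.19 (SE, n = 3 per group; edgeR adjusted p = 0.00384).

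Cyclin D2, from CCND2 (chromosome 12, 4273772 to 4305350, plus strand), was barely expressed and went the other way. The table gave it 198, 143 and 230 units in ENL and 76, 121 and 74 units in control, which is 2.90, 2.10 and 2.77 CPM in ENL libraries against 0.869, 1.49 and 0.871 CPM in control libraries. Every ENL library lay above every control library. The log2 fold change of 1.26 ± 0.30 passed (SE, n = 3 per group; edgeR adjusted p = 0.0159), but not without control library 1 (adjusted p = 0.0549) or without control library 3 (adjusted p = 0.0556). A same-strand gene, AC008012.1, shares 989 exon bases with CCND2 and was at 0 in all 6 libraries, and exons of CCND2-AS1, on the opposite strand, cover 126.

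Because CCND2 is so scarce, the rise of CCND2 hardly changed the D cyclin pool. Per kilobase of transcript (CPM divided by the length of the longest coding transcript), the level of CCND1 was 14.6 ± 0.551 in ENL and 32.6 ± 1.28 in control (SD, n = 3 each). CCND3 came next at 7.94 ± 2.14 in ENL and 17.3 ± 0.639 in control, and CCND2 last at 0.400 ± 0.0663 in ENL and 0.166 ± 0.0555 in control. The order CCND1, CCND3, CCND2 was the same in both groups, and no neighbours in it overlapped. Summed over the 3 genes, the level was 21.1, 25.4 and 22.4 CPM per kilobase in ENL libraries and 50.9, 48.9 and 50.4 in control libraries. CCND1 made up 64.0% ± 5.44 of that sum in ENL and 65.2% ± 1.54 in control, a difference within the spread between libraries. The share of CCND2 was 1.77% ± 0.440 in ENL and 0.334% ± 0.119 in control.

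Among the inhibitors, CDKN1B, CDKN1C, CDKN2B and CDKN2D rose. The proximal promoters of CDKN1B, CDKN2B and CDKN2D, those of the 4 with a RefSeq window at hand, are shown because these genes moved in 1 direction, and the promoter of the p16 form of CDKN2A is shown beside them, since CDKN2A neighbours CDKN2B and did not pass. Each is the RefSeq window (GRCh38.p14) from 250 bases before to 50 bases after an annotated start, written 5′ to 3′ on the gene's strand. Capitals mark GC boxes (GGGCGG) and CCAAT boxes (CCAAT), searched on both strands with overlapping matches counted.
CDKN1B, chr12:12717118-12717417, plus strand: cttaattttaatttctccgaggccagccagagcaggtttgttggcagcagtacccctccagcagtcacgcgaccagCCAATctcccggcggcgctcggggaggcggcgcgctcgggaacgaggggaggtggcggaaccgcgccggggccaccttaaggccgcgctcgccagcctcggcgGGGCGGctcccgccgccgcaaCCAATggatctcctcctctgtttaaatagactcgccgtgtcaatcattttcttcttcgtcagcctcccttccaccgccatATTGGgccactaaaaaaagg
CDKN2B, chr9:22009256-22009555, minus strand: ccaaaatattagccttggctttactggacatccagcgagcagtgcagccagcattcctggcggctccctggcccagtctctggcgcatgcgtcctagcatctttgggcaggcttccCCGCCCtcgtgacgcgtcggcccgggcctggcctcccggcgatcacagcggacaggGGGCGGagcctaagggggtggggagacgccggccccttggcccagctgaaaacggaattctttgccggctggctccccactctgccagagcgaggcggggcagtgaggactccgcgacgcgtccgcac
CDKN2D, chr19:10568930-10569229, minus strand: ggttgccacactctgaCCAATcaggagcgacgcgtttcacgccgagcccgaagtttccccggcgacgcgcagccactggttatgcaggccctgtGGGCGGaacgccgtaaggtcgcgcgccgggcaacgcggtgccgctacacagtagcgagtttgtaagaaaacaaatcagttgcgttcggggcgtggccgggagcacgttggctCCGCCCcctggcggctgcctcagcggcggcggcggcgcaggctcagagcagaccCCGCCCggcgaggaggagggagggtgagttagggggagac
CDKN2A, chr9:21974808-21975107, minus strand: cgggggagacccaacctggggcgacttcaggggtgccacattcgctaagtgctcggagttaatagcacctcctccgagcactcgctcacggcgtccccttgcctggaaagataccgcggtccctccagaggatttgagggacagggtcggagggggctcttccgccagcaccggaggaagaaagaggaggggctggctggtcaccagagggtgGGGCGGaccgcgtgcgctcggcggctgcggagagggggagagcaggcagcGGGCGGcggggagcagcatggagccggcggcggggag
The CDKN1B window held 1 GC box and 3 CCAAT boxes, the CDKN2B window 2 GC boxes and no CCAAT box, and the CDKN2D window 3 GC boxes and 1 CCAAT box. The CDKN2A window held 2 GC boxes and no CCAAT box. Of 35116 RefSeq windows of this length, 45% held at least 1 GC box and 26.7% at least 2. At least 1 CCAAT box was found in 34.6% and at least 3 in 3.26%. None of the 4 windows held an E-box (CACGTG), a cyclic AMP response element (TGACGTCA), a forkhead motif (TGTTTAC) or an E2F motif (TTTCCCGC, TTTCGCGC, TTTGCCGC or TTTGGCGC), which occur in 7.26%, 1.85%, 3.42% and 3.31% of all windows. These are matches of letters in a short window and were not tied to binding. RefSeq windows were matched for 7 of the 10 members, all but CCND1, CCND2 and CDKN1C. Among windows not shown, GC boxes numbered 4 for CDKN1A, 0 to 6 for CDKN2C, 0 to 5 for CCND3 and 0 at the other CDKN2A start. CCAAT boxes numbered 0 to 1 for CCND3, 0 to 1 for CDKN2C, and 0 for CDKN1A and at the other CDKN2A start. E-boxes numbered 0 to 1 for CDKN2C and forkhead motifs 0 to 1 for CCND3. GC boxes and CCAAT boxes were thus not particular to the members that rose.

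CDKN1B encodes p27, which holds cyclin E-CDK2 inactive in resting cells. CDKN1B stood at 166, 137 and 148 CPM in ENL libraries 1, 2 and 3, against 40.6, 39.7 and 39.6 CPM in control libraries. Even the lowest ENL library was far above the control libraries, which hardly differed among themselves (coefficient of variation 1.35%). The log2 fold change of 1.91 ± 0.09 (SE, n = 3 per group; edgeR adjusted p = 3.7e-05) had the smallest adjusted p of the 10 members. The gene lies on chromosome 12 (12715058 to 12722371, plus strand), and no exon of another gene overlaps its exons.

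CDKN2B (chromosome 9, 22002903 to 22009363, minus strand) encodes p15, an inhibitor known to be induced by transforming growth factor beta. In ENL libraries 1, 2 and 3 it was at 115, 128 and 133 CPM, and in control libraries at 38.2, 40.8 and 39.2 CPM. The groups were far apart, with a log2 fold change of 1.67 ± 0.09 (SE, n = 3 per group; edgeR adjusted p = 4.26e-05). CDKN2D encodes p19, the INK4 inhibitor of chromosome 19 (10566462 to 10569059, minus strand). It had 57.1, 59.4 and 46.2 CPM in ENL libraries and 24.2, 27.5 and 27.7 CPM in control libraries. ENL library 3 was the lowest of its group and still above all controls, and the log2 fold change was 1.04 ± 0.12 (SE, n = 3 per group; edgeR adjusted p = 0.00107).

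CDKN1C (chromosome 11, 2883213 to 2885773, minus strand), an imprinted gene, encodes p57. The table gave it 124, 153 and 148 units in ENL libraries 1, 2 and 3, against 11, 22 and 15 units in control libraries. About 4 units are taken as 1 fragment. On the CPM scale its levels were 1.82, 2.25 and 1.78 in ENL and 0.126, 0.271 and 0.176 in control. It was thus close to the limit of detection in control and low in ENL. The log2 fold change of 3.34 ± 0.38 (SE, n = 3 per group; edgeR adjusted p = 0.000887) has a wide 95% interval, from 2.44 to 4.24.

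CDKN1A (chromosome 6, 36676460 to 36687339, plus strand) encodes p21, an inhibitor known to rise after DNA damage. Its level was 52.0, 50.3 and 46.2 CPM in ENL libraries 1, 2 and 3 and 45.9, 48.4 and 45.8 CPM in control libraries. The groups overlapped. Exons of DINOL, a non-coding gene on the opposite strand, cover 146 of its exon bases. The log2 fold change of CDKN1A was 0.084 ± 0.085 (SE, n = 3 per group; edgeR adjusted p = 0.473), with a 95% interval from -0.12 to 0.29, and its sign turned with scaling by library totals (-0.12) or upper quartiles (-0.001). CDKN2C, which encodes p18 (chromosome 1, 50960745 to 50974633, plus strand), had 110, 103 and 86.3 CPM in ENL libraries and 122, 121 and 119 CPM in control libraries. All ENL libraries were below all control libraries, yet the log2 fold change of -0.27 ± 0.10 did not pass (SE, n = 3 per group; edgeR adjusted p = 0.0754). It passed under library totals (log2 fold change -0.48, adjusted p = 0.0055) and upper-quartile scaling (-0.35, adjusted p = 0.0357), and narrowly when only genes of at least 10 CPM in 3 libraries were tested (-0.30).

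CDKN2A (chromosome 9, 21967753 to 21995301, minus strand) encodes 2 unrelated proteins from different first exons, the CDK4 inhibitor p16 and the MDM2 inhibitor ARF, and a count per gene does not separate them. Its level was 433, 827 and 700 CPM in ENL libraries 1, 2 and 3, against 748, 777 and 448 CPM in control libraries. It was by far the most abundant of the 10 transcripts in every library, and 1 library of each group, ENL library 1 and control library 3, lay well below the other two. The coefficient of variation was 30.8% in ENL and 27.7% in control. The log2 fold change of CDKN2A was -0.010 ± 0.306 (SE, n = 3 per group; edgeR adjusted p = 0.983), and its 95% interval from -0.76 to 0.74 leaves room for a change in either direction. Exons of the antisense gene CDKN2B-AS1 cover 341 of its exon bases.

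**Figure D2:**
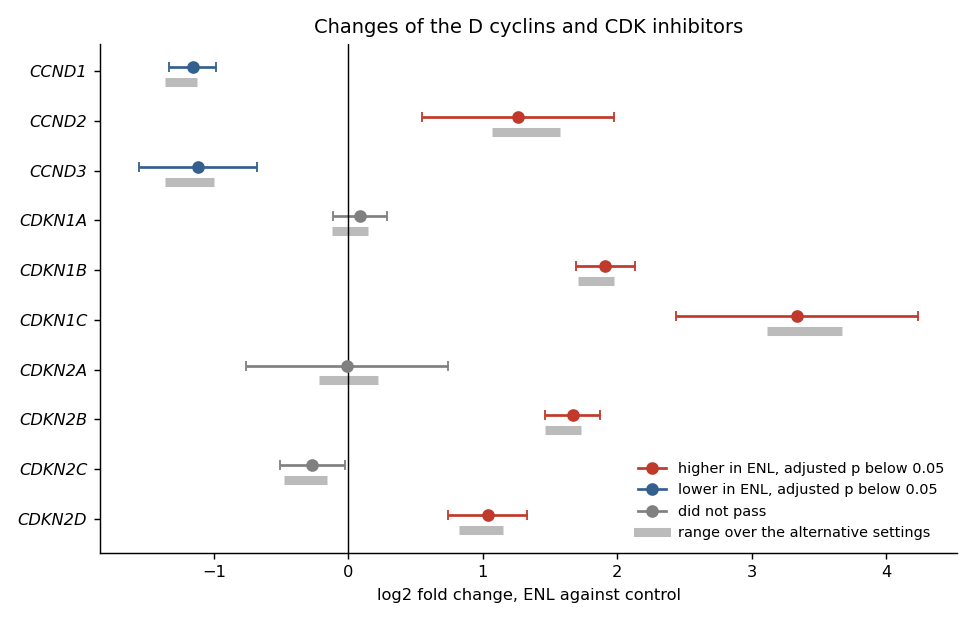
Log2 fold change of each member, ENL against control, with its 95% interval (points and whiskers) and the range over the alternative settings of scaling, test, filter and libraries (grey bars). CDKN1B (1.91), CDKN2B (1.67), CDKN2D (1.04), CDKN1C (3.34) and CCND2 (1.26) lie above 0, CCND1 (-1.16) and CCND3 (-1.12) below it, and the interval of CDKN2A spans -0.76 to 0.74.

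The order of the inhibitor levels differed between the groups. Per kilobase of transcript, CDKN2A led with 509 ± 157 CPM in ENL and 513 ± 142 CPM in control (SD, n = 3 each). In ENL, CDKN1B came second at 56.5 ± 5.50, followed by CDKN2D (38.1 ± 4.97), CDKN2C (34.4 ± 4.19) and CDKN2B (32.1 ± 2.35), and CDKN2D and CDKN2C, as well as CDKN2C and CDKN2B, overlapped over libraries. CDKN1A (21.8 ± 1.33) and CDKN1C (1.01 ± 0.134) were the lowest. In control, CDKN2C came second at 41.4 ± 0.540, then CDKN1A (20.6 ± 0.653), CDKN2D (18.6 ± 1.36), CDKN1B (15.0 ± 0.203), CDKN2B (10.1 ± 0.334) and CDKN1C (0.0988 ± 0.0382), with no overlap between neighbours. These ranks depend on which transcript length is assumed. With coding lengths in place of transcript lengths, CDKN2B came second in ENL (303 CPM per kilobase, overlapping CDKN1B at 253), and CDKN2C kept its place in control (239).

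By family, the CIP/KIP genes summed to 86.3, 74.8 and 77.1 CPM per kilobase in ENL libraries 1, 2 and 3 and to 35.6, 36.4 and 35.2 in control libraries. Most of that difference came from CDKN1B. The INK4 genes other than CDKN2A summed to 107, 110 and 96.1 in ENL and to 68.7, 71.3 and 70.3 in control. With CDKN2A the INK4 sums were 445, 754 and 642 in ENL and 652, 677 and 419 in control, and the groups overlapped. CDKN2A held 72.4% ± 7.71 of the summed inhibitor level in ENL and 82.2% ± 4.66 in control, and the groups overlapped (up to 77.7% in ENL and down to 76.8% in control). Because the CDKN2A count does not separate p16 from ARF, sums and shares that include CDKN2A are not those of p16 alone. CDKN1B held 8.57% ± 2.85 in ENL and 2.53% ± 0.651 in control, with no overlap.

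**Figure D3:**
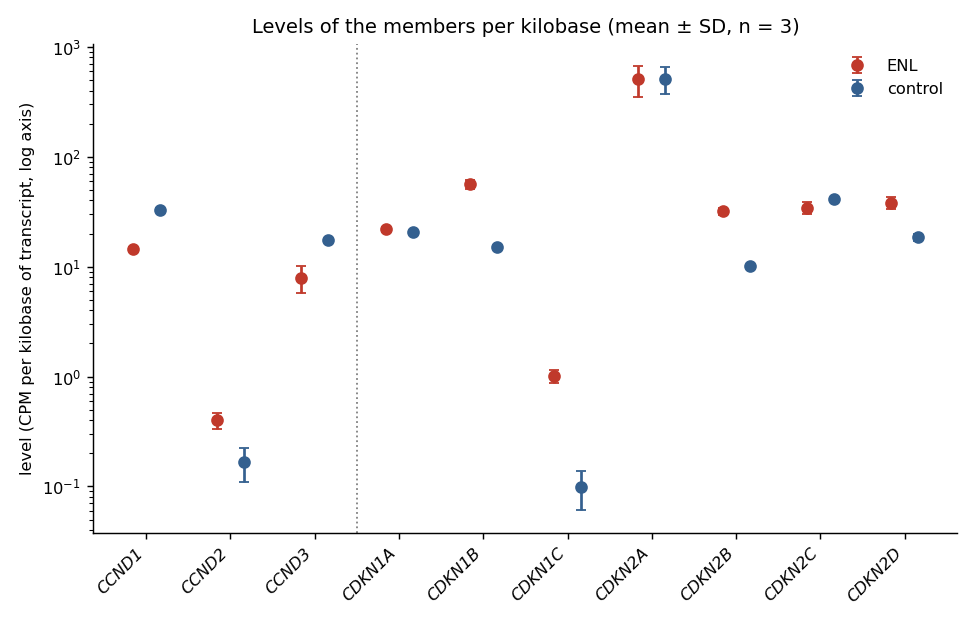
Mean level of each member per kilobase of transcript (CPM per kilobase, log axis) ± SD over 3 libraries, ENL in red and to the left, control in blue; the dotted line parts D cyclins from inhibitors. CDKN2A stands highest in both groups (509 and 513), and CDKN1B lies at 56.5 in ENL against 15.0 in control.

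The genes whose pattern over the 6 libraries was most like that of the leading member of each family were found by Pearson correlation of log2(CPM + 1) over 10504 genes that averaged 5 CPM or more. For CCND1 these were CCDC18 (r = 0.9998, n = 6 libraries), the splicing factor gene SFPQ (0.9992) and MFSD14C (0.9991). The 6 libraries fall into the 2 groups, so these values mostly describe a like difference between them. For CDKN2A they were IFT27, a gene of cilium transport (0.9776), CDKN2AIP, which encodes a CDKN2A-interacting protein (0.9636), and the lipid kinase gene PI4KB (0.9592).

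The catalytic partners of the D cyclins did not move together. CDK6 fell, with 21.5 ± 4.14 CPM in ENL and 36.9 ± 2.61 CPM in control (SD, n = 3 each; log2 fold change -0.78 ± 0.16, edgeR adjusted p = 0.00778). CDK4, the more abundant partner per kilobase, had 147 ± 15.6 CPM in ENL and 125 ± 2.79 CPM in control and did not pass (edgeR adjusted p = 0.0882), though it did without ENL library 3 (0.00729). CDK2, the kinase held by the CIP/KIP inhibitors, had 39.8 ± 3.11 CPM in ENL and 44.5 ± 6.07 CPM in control (edgeR adjusted p = 0.348). Of the 11 CDKs, other interphase cyclins and parts of the CDK-activating kinase, 2 rose, 4 fell and 5 did not pass, with a median log2 fold change of 0.00 against -0.022 over all genes tested, of which 20.0% rose and 18.4% fell. The share of rises was near that of all genes. The falls were those of the cyclin E2 gene CCNE2 (-1.96 ± 0.20), the phosphatase gene CDC25A (-1.12 ± 0.20), CDK6 and, named after its value was seen, the cyclin E1 gene CCNE1 (-0.34 ± 0.11), whose call was lost without any 1 of the 6 libraries, with DESeq2 size factors, with no filter and with the replicate number as a block. The rises were those of CDK7 (0.58 ± 0.16) and its cyclin CCNH (0.38 ± 0.12), parts of the kinase that activates other CDKs. Neither rise is firm: CCNH lost its call without any 1 library but ENL library 3, CDK7 without ENL library 1 or 2 or control library 2 or 3, and both under scaling by library totals (log2 fold changes 0.37 for CDK7 and 0.17 for CCNH). CCNH also lost it under upper quartiles, in limma-voom and with only genes of at least 10 CPM in 3 libraries.

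Among pocket proteins and E2F factors, through which the D cyclins act, 6 of 13 fell, 2 rose and 5 did not pass (median log2 fold change -0.43), where 18.4% of all genes tested fell and 20.0% rose. RB1 transcript was present and rose by 0.54 ± 0.12 on the log2 scale, with 23.5 ± 1.42 CPM in ENL and 16.2 ± 1.60 CPM in control (SD, n = 3 each; edgeR adjusted p = 0.0109), a call lost under library totals (0.33, adjusted p = 0.0564). E2F5, a repressor E2F, rose by 1.01 ± 0.13. The falls with the smallest adjusted p were those of the activator E2F2 (-1.10 ± 0.10), the E2F partner gene TFDP1 (-0.98 ± 0.11) and the atypical repressor E2F8 (-1.18 ± 0.14). Of 30 genes that E2F factors are known to drive, 18 fell, 2 rose and 10 did not pass (median -0.48), where 18.4% of all genes tested fell. The lists share genes, so their falls are not separate evidence. CCNE1, CCNE2 and CDC25A, counted above among CDKs and cyclins, are counted here again. So are E2F2 and RBL1, a pocket protein gene named after its value was seen. MYBL2, a cell cycle transcription factor gene, had 136 ± 9.64 CPM in ENL and 281 ± 15.9 CPM in control. The replication licensing genes CDT1 (1.34 ± 0.11) and MCM5 (0.31 ± 0.08) rose, MCM5 with a call that was lost without ENL library 2, control library 1 or control library 3 and under library totals or upper quartiles. MKI67, a proliferation marker, had 107 ± 41.6 CPM in ENL and 161 ± 29.9 CPM in control and did not pass (edgeR adjusted p = 0.187).

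Of 19 genes that control the stability of D cyclins and CDK inhibitors, 5 rose, 3 fell and 11 did not pass (median log2 fold change 0.21), shares near the 20.0% and 18.4% of all genes tested that rose and fell. SKP2, the ubiquitin ligase subunit that marks p27 for destruction, had 13.5 ± 1.12 CPM in ENL and 21.4 ± 8.11 CPM in control (SD, n = 3 each). It did not pass (edgeR adjusted p = 0.0811), although all ENL libraries lay below all control libraries, and passed under library totals (0.0374) or in DESeq2's Wald test (0.0329). CUL1, the scaffold of the same ligase, fell by 0.77 ± 0.08 on the log2 scale, RNF123, part of another ligase for p27, by 0.42 ± 0.12, and DDB1, an adaptor of ligases that act on p21, by 0.46 ± 0.12. CDC20 and FZR1, activators of the anaphase-promoting complex, rose by 0.80 ± 0.09 and 0.56 ± 0.08, and the scaffold gene CUL4B by 0.55 ± 0.08. CRYAB and USP2, named after their values were seen, also rose, CRYAB with 32 to 79 units in ENL libraries and 0 to 9 in control libraries, and with a call lost without ENL library 1 or 3 or control library 1 or 2 and with the replicate number as a block. Without ENL library 1 or 2, or control library 2 or 3, RNF123 and DDB1 lost their calls, while CUL1 kept its call.

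Of 29 upstream transcriptional regulators 7 rose, 2 fell and 20 did not pass (median log2 fold change 0.29), where 20.0% of all genes tested rose and 18.4% fell. The share that rose was near that of all genes. The rises with the smallest adjusted p were those of CEBPA, whose product is known to stabilise p21 and halt the cycle (2.52 ± 0.15), CEBPB (1.70 ± 0.13) and the inhibitor of differentiation gene ID1 (1.17 ± 0.13). The falls were those of CTNNB1, which encodes beta-catenin, a known activator of CCND1 (-0.50 ± 0.11), and FOXO4, a forkhead factor gene of the group that drives CDKN1B (-1.04 ± 0.28). The call of FOXO4 was lost without ENL library 2 or 3 or any 1 control library. FOXO1 (0.291 ± 0.129) and FOXO3 (0.245 ± 0.143), more abundant forkhead genes named after their values were seen, did not pass. MYC, a repressor of CDKN1A and CDKN2B, had 34.0 ± 3.0 CPM in ENL and 53.8 ± 44.0 CPM in control (SD, n = 3 each). It did not pass (edgeR adjusted p = 0.386), and its log2 fold change of -0.66 became 0.26 without control library 3, again without passing (adjusted p = 0.176).

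**Figure D4:**
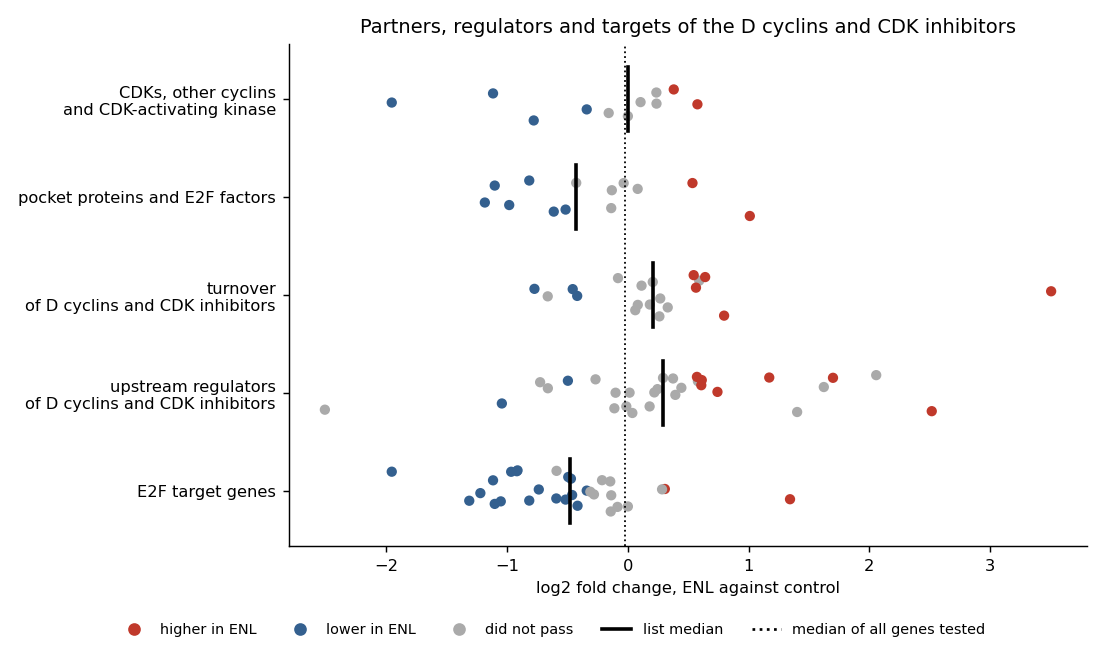
Log2 fold change, ENL against control, of each gene in the 5 lists of partners, regulators and targets; points are genes, coloured by call, thick bars are list medians and the dotted line is the median of all genes tested (-0.022). E2F targets lie mostly below 0 (18 of 30 fell).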

How the data were processed

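The authors deposited 1 table of estimated counts per gene symbol and library, as whole numbers. Per the submitters' processing notes, the tools included STAR, StringTie, FastQC and DESeq2 and the build was hg38; versions, roles and the annotation are not given in these sources. Of the values from 4 to 43 units, 70.8% to 73.1% per library lay at multiples of 4 or 1 above them. Such positions are a large part of all whole numbers, and the other values lay elsewhere, so the step is approximate. Taken as about 4 units per fragment, it means that low values carry more counting error than their size shows. Nothing needed rounding.

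Columns were matched to samples by title. No 2 libraries agreed within sampling noise (units divided by 4; lowest chi-square per degree of freedom 17.41), so all 6 were counted. Genes kept by filterByExpr (minimum count 10) were scaled by TMM and tested with edgeR 4.0.16 (quasi-likelihood F test, robust, two-sided, group alone, R 4.3.3), with Benjamini-Hochberg adjustment over 14086 genes and a threshold of 0.05. Tested on simulated data, the procedure found 81.6% of 4-fold but only 50.4% of 2-fold changes, and fewer of smaller ones. Of its calls there, 9.6% fell on unchanged genes, more than the threshold allows. Calls near the threshold are therefore to be read as less sure than their adjusted p. Far fewer genes were changed in the simulations than passed here, so these shares need not hold for these data. Lengths and positions are from GENCODE 29 (GRCh38), promoters from RefSeq. Alternatives used DESeq2 1.42.0 and limma 3.58.1 among others.

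The members and lists were chosen with earlier results of these data known. Named were all members, RB1, CDK4, CDK6, CDK2, MYC, SKP2 and MKI67, up to 3 genes per list and direction by smallest adjusted p, and the 3 genes most like CCND1 and CDKN2A; others are said to be named after their values were seen or are markers of the line. Some genes covered by this rule, and 1 list, are not reported here.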

Additional observations from a re-analysis of the deposited data

How the results depend on the processing

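CCND1, CCND3, CDKN1B, CDKN1C, CDKN2B and CDKN2D kept their direction and call in every alternative that tested them, and CCND2 in 12 of 14. Leaving out 1 library at a time gave 4 to 5 members higher and 2 lower, and 2072 to 3156 higher and 1743 to 2877 lower genes overall. With at least 10 CPM in 3 libraries, CCND2 and CDKN1C were not tested, and 3 members were higher and 3 lower, CDKN2C among them. With the replicate number as a block, 5 members were higher and 2 lower, and 2631 and 2310 of all genes. Deviations of same-numbered libraries had small positive correlations (0.03, 0.046 and 0.08), against -0.075 to 0.032 for libraries of unlike number. Values this small do not show whether the libraries were paired. The block changed no member's call.

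With library totals alone, 1804 genes were higher and 3996 lower. Among the lists it gave 0 rises of CDKs and cyclins, 1 of pocket proteins and E2F factors and 1 of E2F targets, and 5 falls of turnover genes and 4 of upstream regulators. Upper-quartile scaling left 1 rise among CDKs and cyclins and 1 among E2F targets, limma-voom 1 among CDKs and cyclins, and the filter of 10 CPM 1 rise there and 1 fall of upstream regulators. Leaving out a library gave 0 to 4 rises of CDKs and cyclins, 1 to 3 falls of turnover genes, 1 to 3 falls of upstream regulators and 1 to 2 rises of E2F targets. The causes were not tested beyond what each alternative changes by construction.

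Log2 fold changes near 0 changed sign: CDKN1A (-0.12 under library totals, -0.001 under upper quartiles), CDKN2A (0.22 without ENL library 1, 0.094 without control library 1, 0.13 without control library 2, within a range from -0.22 to 0.22 over single libraries left out) and MYC (0.26 without control library 3, within -0.98 to 0.26). With coding lengths, CCND1 held 68.5% of the D cyclin level in ENL and 70.5% in control, and CDKN2A 62% of the inhibitor level in ENL and 74.3% in control. Depth limits CDKN1C and CCND2 most. CCND1 summed with LTO1, tried after seeing the data, kept its call. Since LTO1 alone was also lower in ENL, that sum could hardly come out otherwise and is no check of the call.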

Other observations

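CDKN2AIP and IFT27 were picked for their likeness to CDKN2A over these libraries, so their low values in ENL library 1 and control library 3 follow from that choice. CDKN2AIP had 2.53, 21.6 and 25.4 CPM in ENL libraries 1, 2 and 3 and 19.5, 17.7 and 2.84 CPM in control libraries 1, 2 and 3. IFT27 had 7.09, 13.6 and 12.9 CPM in ENL libraries and 13, 12 and 6.83 CPM in control libraries. For CDKN2B, the neighbour of CDKN2A, ENL library 1 was also the lowest of its group, though by less (115, against 128 and 133 CPM). Control library 3 lay between the other control libraries (39.2, against 38.2 and 40.8 CPM).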
